A study of Homo sapiens with 12 samples.

Results

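The proteasome gene set held 39 genes, matched by exact symbol in the deposited gene table and traced to their identifiers among the 58288 counted. It comprised the 7 alpha ring genes PSMA1 to PSMA7, the 4 structural beta genes PSMB1 to PSMB4, the 3 constitutive catalytic genes PSMB5, PSMB6 and PSMB7, and the 3 immune catalytic genes PSMB8, PSMB9 and PSMB10. The regulatory particle was represented by 6 ATPase genes (PSMC1 to PSMC6), 3 other base genes (PSMD1, PSMD2 and PSMD4) and 8 lid genes (PSMD3, PSMD6, PSMD7, PSMD8, PSMD11, PSMD12, PSMD13 and PSMD14). The activators PSME1, PSME2, PSME3 and PSME4 and the maturation factor POMP completed the set. All 39 passed the filter on low counts, with at least 50 reads in the library where a member was lowest.

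RNA came from MV3, an established human melanoma line first isolated from a lymph node metastasis. The cells were kept for 3 h in RPMI with 1% serum and then for 24 h in one of 4 media, with 3 samples each. The M1 medium had been conditioned by THP-1 monocytic leukaemia cells that were differentiated to macrophages with the phorbol ester PMA and then polarized with LPS and IFNγ. The M2 medium came from such cells polarized with IL4 and IL13, the M0 medium from cells given PMA without a polarizing agent, and the Ctrl medium was fresh RPMI that no cell had conditioned. All 12 samples were thus 1 melanoma line, and the macrophages themselves came from a cell line. The labels do not say whether replicates were separate cultures. The p-values weigh group differences against the spread among these samples, and that spread may be technical. Whether cytokines or stimulants remained in the media was not measured. The study's main question was the difference among the M1, M2 and M0 media.

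The proteasome degrades proteins tagged with ubiquitin. Its core is a barrel of stacked rings, in which 3 kinds of beta subunit carry the proteolytic sites, and caps such as the 19S regulatory particle or the PA28 ring open it. Interferon-gamma is known to raise PSMB8, PSMB9 and PSMB10, which replace PSMB5, PSMB6 and PSMB7 in newly built particles called immunoproteasomes, and to raise the PA28 genes PSME1 and PSME2. Immunoproteasomes are known for the peptides they supply to MHC class I molecules.

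Library totals ran from 21788397 to 42921242 counts, and the 39 genes took 0.556% to 0.734% of them. M2 replicate 2 was the sole library with reads on 3759 genes, while each of the others was the sole one for 160 to 453. M0 replicate 3 was the highest of the M0 libraries in 28 of the 34 members outside the immune genes. Ctrl replicate 1 was the lowest of the Ctrl libraries in 25 of them, and such ranks were not counted over all genes. For some of the calls described below that leaving out 1 of these libraries ended or gave, the value without it is given. The labelled cell type could be checked only in part. AXL averaged 1254, 1792, 2126 and 2444 CPM in M1, M2, M0 and Ctrl (CPM, read counts scaled to a common library size by TMM), and fell in M1 against M0, M2 and Ctrl alike (edgeR). MCAM, by contrast, was higher in M1 than in M0 (log2 fold change 0.36, adjusted p = 0.00326), MITF was 1.81-fold to 2.60-fold higher and NES 2.19-fold to 2.35-fold lower in the conditioned media than in Ctrl (edgeR), and the part of these shifts in the results was not tested. The melanocytic genes S100B and TYR had no read in any library, and SOX10 and MLANA had 1 read each, both in M2. Of 12 melanoma markers 4 passed the filter, AXL, MCAM, MITF and NES. SOX10, S100A1, S100B, PMEL, MLANA, TYR, DCT and NGFR did not. Of 15 macrophage markers only CD33 passed the filter, the 15 together summed to 0.938 to 1.39 CPM in M1, 0.966 to 1.42 in M2, 1.22 to 1.30 in M0 and 1.47 to 1.75 in Ctrl, and AIF1 had no read anywhere. In bulk RNA, fewer cells expressing a gene and less RNA per cell cannot be told apart.

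The 5 immune genes PSMB8, PSMB9, PSMB10, PSME1 and PSME2 were higher after M1 medium than after any other medium, by 2.25-fold to 7.46-fold against M0 medium. PSMB5, PSMB6 and PSMB7 did not follow, and most other core and cap genes were at or below their M0 levels. Against M0, 7 of the 39 genes were higher in M1 and 18 were lower, where 25.5% of all 14088 genes tested were higher and 26.7% were lower (edgeR quasi-likelihood test, Benjamini-Hochberg adjusted p under 0.05). In shares of the 39 genes, 17.9% were higher and 46.2% were lower. The median log2 fold change was 1.76 over the 5 immune genes and -0.18 over the other 34, beside -0.01 over all genes.

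**Figure D1:**
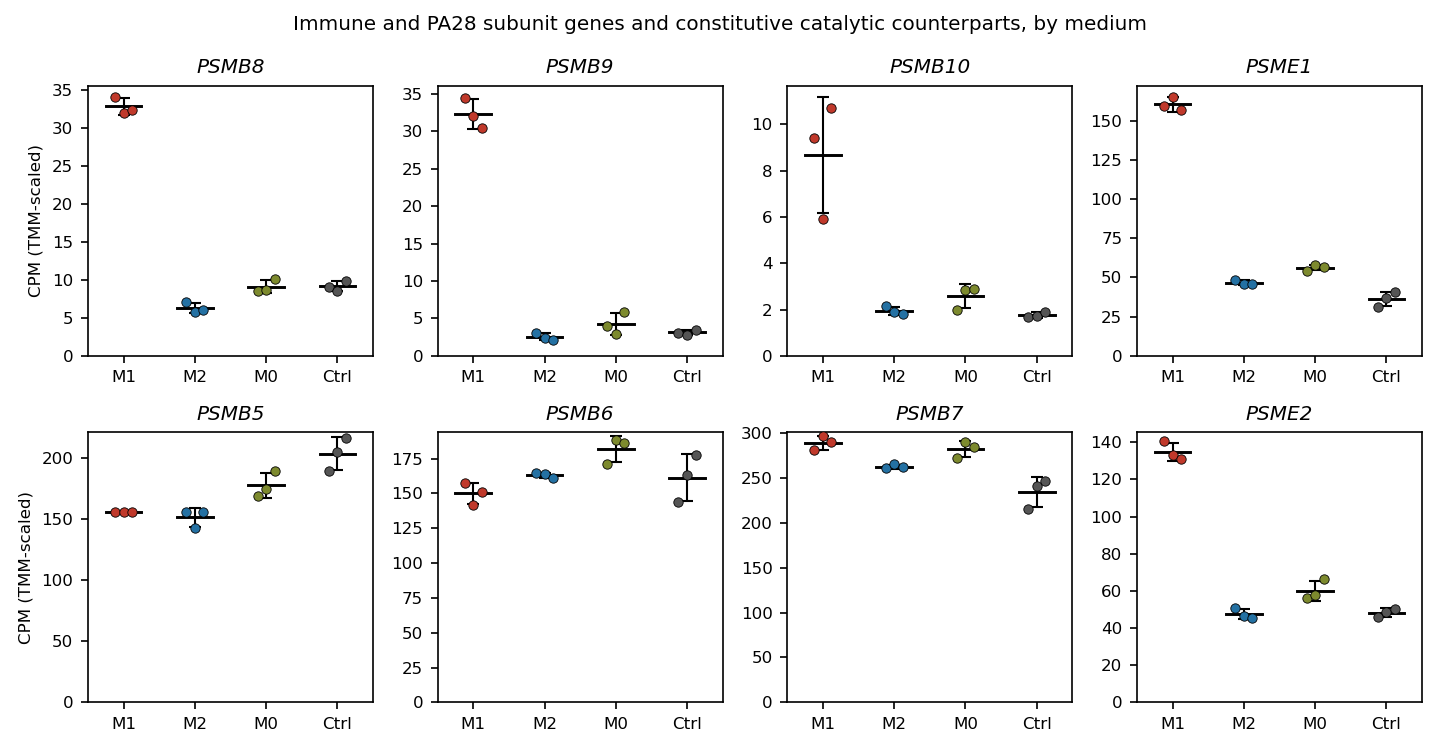
Levels of the immune catalytic genes PSMB8, PSMB9 and PSMB10, the PA28 genes PSME1 and PSME2 and the constitutive catalytic genes PSMB5, PSMB6 and PSMB7 in M1, M2, M0 and Ctrl samples, in TMM-scaled CPM on axes that start at 0. Points are the 3 libraries of a group and bars the mean ± SD. In M1 every library of the 5 immune genes lies above all 9 others, while PSMB5, PSMB6 and PSMB7 show no such separation.

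PSMB8 encodes beta5i, the immune subunit with chymotrypsin-like activity. It stood at 34.1, 32.0 and 32.4 CPM in the M1 libraries, 7.11, 5.82 and 6.04 CPM in M2, 8.57, 8.71 and 10.1 CPM in M0, and 9.13, 8.61 and 9.85 CPM in Ctrl. The M1 libraries lay far above the rest, the M2 libraries were the lowest, and M0 and Ctrl overlapped. PSMB8 was 3.60-fold higher in M1 than in M0 (log2 fold change 1.85 ± 0.08 SE, adjusted p = 8.63e-10, edgeR) and 5.17-fold higher in M1 than in M2 (adjusted p = 5.23e-11, edgeR).

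PSMB9 encodes beta1i and showed the greatest rise of the set in M1. Its values were 34.4, 32.0 and 30.4 CPM in M1, 3.09, 2.41 and 2.15 CPM in M2, 3.98, 2.93 and 5.89 CPM in M0, and 3.11, 2.81 and 3.47 CPM in Ctrl. M1 stood clear of all other libraries, M2 overlapped M0 and Ctrl, and M0 replicate 3 was well above M0 replicate 2. The rise in M1 was 7.46-fold over M0 (log2 fold change 2.90 ± 0.29 SE, adjusted p = 4.14e-09, edgeR) and 12.5-fold over M2 (adjusted p = 5.10e-10, edgeR).

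PSMB10 encodes beta2i, the trypsin-like immune subunit. It measured 9.41, 5.89 and 10.7 CPM in M1, 2.14, 1.88 and 1.82 CPM in M2, 1.99, 2.84 and 2.91 CPM in M0, and 1.67, 1.71 and 1.91 CPM in Ctrl. M1 replicate 2 lay well below the other M1 libraries and still above every library of the other groups. PSMB10 rose 3.39-fold in M1 against M0 (log2 fold change 1.76 ± 0.31 SE, adjusted p = 5.64e-06, edgeR).

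PSME1 and PSME2 encode PA28 alpha and PA28 beta, which form a ring that opens the core without ATP. PSME1 had 159, 165.3 and 156.4 CPM in M1, 48.4, 45.8 and 45.5 CPM in M2, 54.4, 57.9 and 56.5 CPM in M0, and 31.4, 36.8 and 40.5 CPM in Ctrl, with no overlap between any of the 4 groups. PSME2 had 140.5, 133.1 and 130.8 CPM in M1, 50.8, 46.7 and 45.3 CPM in M2, 56.1, 57.6 and 66.2 CPM in M0, and 46.0, 48.4 and 50.5 CPM in Ctrl, with M2 and Ctrl overlapping and M0 between them and M1. Both rose in M1 against M0, PSME1 by 2.85-fold (log2 fold change 1.51 ± 0.04 SE, adjusted p = 6.90e-10) and PSME2 by 2.25-fold (log2 fold change 1.17 ± 0.08 SE, adjusted p = 6.53e-09, edgeR). The rises of all 5 immune genes in M1, against M0, M2 and Ctrl alike, kept their calls under every alternative tried.

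PSMB8 and PSMB9 lie close together in the MHC class II region of chromosome 6, at chr6:32840717-32844703 on the minus strand and chr6:32844136-32859585 on the plus strand (GENCODE 29, GRCh38). TAP1, at chr6:32845209-32853978 on the minus strand, lies within this span of PSMB9, between PSMB8 and the RefSeq start of PSMB9 (chr6:32854192). The annotated exons of PSMB8 and PSMB9 overlap by 139 bases, and PSMB8 also shares 618 exon bases with the antisense gene PSMB8-AS1 on the opposite strand. The counting's strand setting is not given in the sources used here, so reads in such overlaps cannot be told apart. PSMB8-AS1 averaged 2.17 ± 0.35 CPM in M1, 0.417 ± 0.124 in M2, 0.309 ± 0.122 in M0 and 0.468 ± 0.108 in Ctrl (SD, n = 3 each), a log2 fold change of 2.82 in M1 against M0 (adjusted p = 1.94e-06, edgeR). PSMB9 shares 174 exon bases with PSMB8-AS1 on the same strand, where no strand setting could part the reads. PSMB10 lies at chr16:67934502-67937087 on the minus strand and shares 644 exon bases with AC040162.1 on that strand. PSME1, at chr14:24136158-24138967 on the plus strand, and PSME2, at chr14:24143362-24147570 on the minus strand, are near neighbours, and PSME2 shares 216 exon bases with RNF31 on the opposite strand.

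The start regions of these genes are shown because the genes rose together, with PSMB5 as the constitutive counterpart of PSMB8. Each is the RefSeq window of the gene (GRCh38.p14), cut to the 100 bases before and 20 bases from the annotated start. PSMB8 and PSMB5 have 2 such windows each, and the one with a match is shown. The RefSeq start of PSMB9 lies inside the longer GENCODE gene. Capitals mark matches to GAAANNGAAA, the core of the interferon-stimulated response element bound by IRF factors, or to TTCNNNGAA, the gamma-activated site, on either strand. The windows are chr6:32844028-32844147 (minus) for PSMB8, chr6:32854092-32854211 (plus) for PSMB9, chr16:67936831-67936950 (minus) for PSMB10, chr14:24136094-24136213 (plus) for PSME1, chr14:24146591-24146710 (minus) for PSME2 and chr14:23034881-23035000 (minus) for PSMB5.
PSMB8: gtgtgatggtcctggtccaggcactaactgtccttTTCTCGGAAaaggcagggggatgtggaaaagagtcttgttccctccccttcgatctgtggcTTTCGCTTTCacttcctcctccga
PSMB9: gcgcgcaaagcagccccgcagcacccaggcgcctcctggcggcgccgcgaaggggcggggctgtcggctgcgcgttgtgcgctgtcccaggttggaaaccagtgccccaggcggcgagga
PSMB10: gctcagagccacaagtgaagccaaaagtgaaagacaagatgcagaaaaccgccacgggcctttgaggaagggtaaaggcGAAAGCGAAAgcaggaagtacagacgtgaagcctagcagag
PSME1: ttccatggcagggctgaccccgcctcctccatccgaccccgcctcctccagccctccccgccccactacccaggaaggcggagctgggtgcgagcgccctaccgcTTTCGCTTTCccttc
PSME2: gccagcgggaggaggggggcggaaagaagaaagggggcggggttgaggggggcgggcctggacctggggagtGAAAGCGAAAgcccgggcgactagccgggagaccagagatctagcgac
PSMB5: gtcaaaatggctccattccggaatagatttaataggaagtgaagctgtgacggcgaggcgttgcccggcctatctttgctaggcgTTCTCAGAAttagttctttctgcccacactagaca

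Whole windows run from 250 bases before to 50 bases after the start, and 34 of the 39 members had at least 1 in the RefSeq table. GAAANNGAAA occurred in 6 of these 34 genes, PSMA4, PSMB4, PSMB8, PSMB10, PSME1 and PSME2. By window that was 6 of their 41, beside 3.57% of all 35116 windows. TTCNNNGAA occurred in 7 of the 34, PSMA2, PSMB5, PSMB8, PSMC4, PSMD2, PSMD3 and PSME3. By window that was 7 of the 41, beside 7.66% of all windows. PSMB8, PSMB10, PSME1 and PSME2 held the same 10 letters, GAAAGCGAAA or its reverse complement, which stood in 35 of the 35116 windows (0.0997%). That exact form was noticed after the sequences had been read. TGANNNNGC, the core of the antioxidant response element, which is also read by NFE2L1, occurred in 22 of the 34 genes. By window that was 25 of the 41, beside 41.8% of all windows. A match is a description of the letters and not of binding.

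Against M2, 10 of the 39 genes were higher in M1, where 15.9% of all genes were, and 4 were lower, where 16.6% were. The higher genes were the 5 immune genes, with log2 fold changes of 1.5 (PSME2) to 3.65 (PSMB9), and PSMA3, PSMA4, PSMA5, PSMD2 and PSMD12. PSMA3 averaged 102.2 ± 7.7 CPM in M1 and 74.9 ± 0.7 CPM in M2, a log2 fold change of 0.45 (adjusted p = 3.83e-04). PSMA4 averaged 134.3 ± 5.6 CPM in M1 and 100.5 ± 2.0 CPM in M2, a log2 fold change of 0.42 (adjusted p = 1.31e-04, edgeR, SD, n = 3 each). Both encode alpha ring subunits, and in both genes every M1 library was above every M2 library. PSMA5, another alpha ring gene, had a log2 fold change of 0.24 (adjusted p = 0.0269), a call that ended without M1 replicate 2, M2 replicate 1 or M2 replicate 3 (adjusted p of 0.0736 to 0.096, edgeR). PSMC3, PSMD3, PSMD4 and PSME3 were lower in M1, with log2 fold changes between -0.24 and -0.16, and none was called without M2 replicate 1. The call of PSMD4 ended in 16 of 19 alternatives, that of PSME3 in 11, that of PSMD3 in 4 and that of PSMC3 in 1.

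M2 medium did not raise any of the 39 genes against M0 by this test, where 12.5% of all genes were higher, and 18 genes were lower, where 12.7% of all genes were. The test is edgeR's, and DESeq2 also gave 0 higher genes. All 39 fitted log2 fold changes were below 0, from -0.75 to -0.02, with a median of -0.20 beside 0.00 over all genes. Among the immune genes PSMB8 fell by 0.52 log2 units (standard error 0.12, adjusted p = 0.00329), PSMB9 by 0.75 (standard error 0.32, adjusted p = 0.0165), PSME2 by 0.33 (standard error 0.09, adjusted p = 0.00552) and PSME1 by 0.27 (standard error 0.04, adjusted p = 0.0206, edgeR). PSMB10 had a log2 fold change of -0.39 (standard error 0.19, adjusted p = 0.234). The greatest falls outside the immune genes were those of PSMB4 (-0.53), PSMC5 (-0.48) and PSMD13 (-0.38).

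These falls in M2 moved with single libraries. The count of 18 became 7 when M0 replicate 3 was left out, 8 when M2 replicate 2 was and 9 when M2 replicate 3 was. Over all genes, 3553 were called either way in M2 against M0, and 1595, 1933 and 1905 in the same fits in this order. Without M0 replicate 3 and M2 replicate 2 together, edgeR called 0 members and 520 genes in all. These are the libraries whose single removal left the fewest members called, so the pair is not a neutral choice. In the fit without both, all 39 fold changes were still below 0, and the share of all genes below 0 there was not counted. In that fit PSMB8 had a log2 fold change of -0.38 (adjusted p = 0.0892) and PSMB9 one of -0.40 (adjusted p = 0.285, edgeR). The PSMB9 call also ended without M0 replicate 3 alone (log2 fold change -0.44, adjusted p = 0.134), M2 replicate 2 (adjusted p = 0.061) or M2 replicate 3 (adjusted p = 0.0749), and the PSME1 call without any 1 of M0 replicate 2, M0 replicate 3, M2 replicate 2 and M2 replicate 3 (adjusted p of 0.0504 to 0.0806, edgeR). The M1 and M2 comparisons with M0 use the same 3 M0 libraries.

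**Figure D2:**
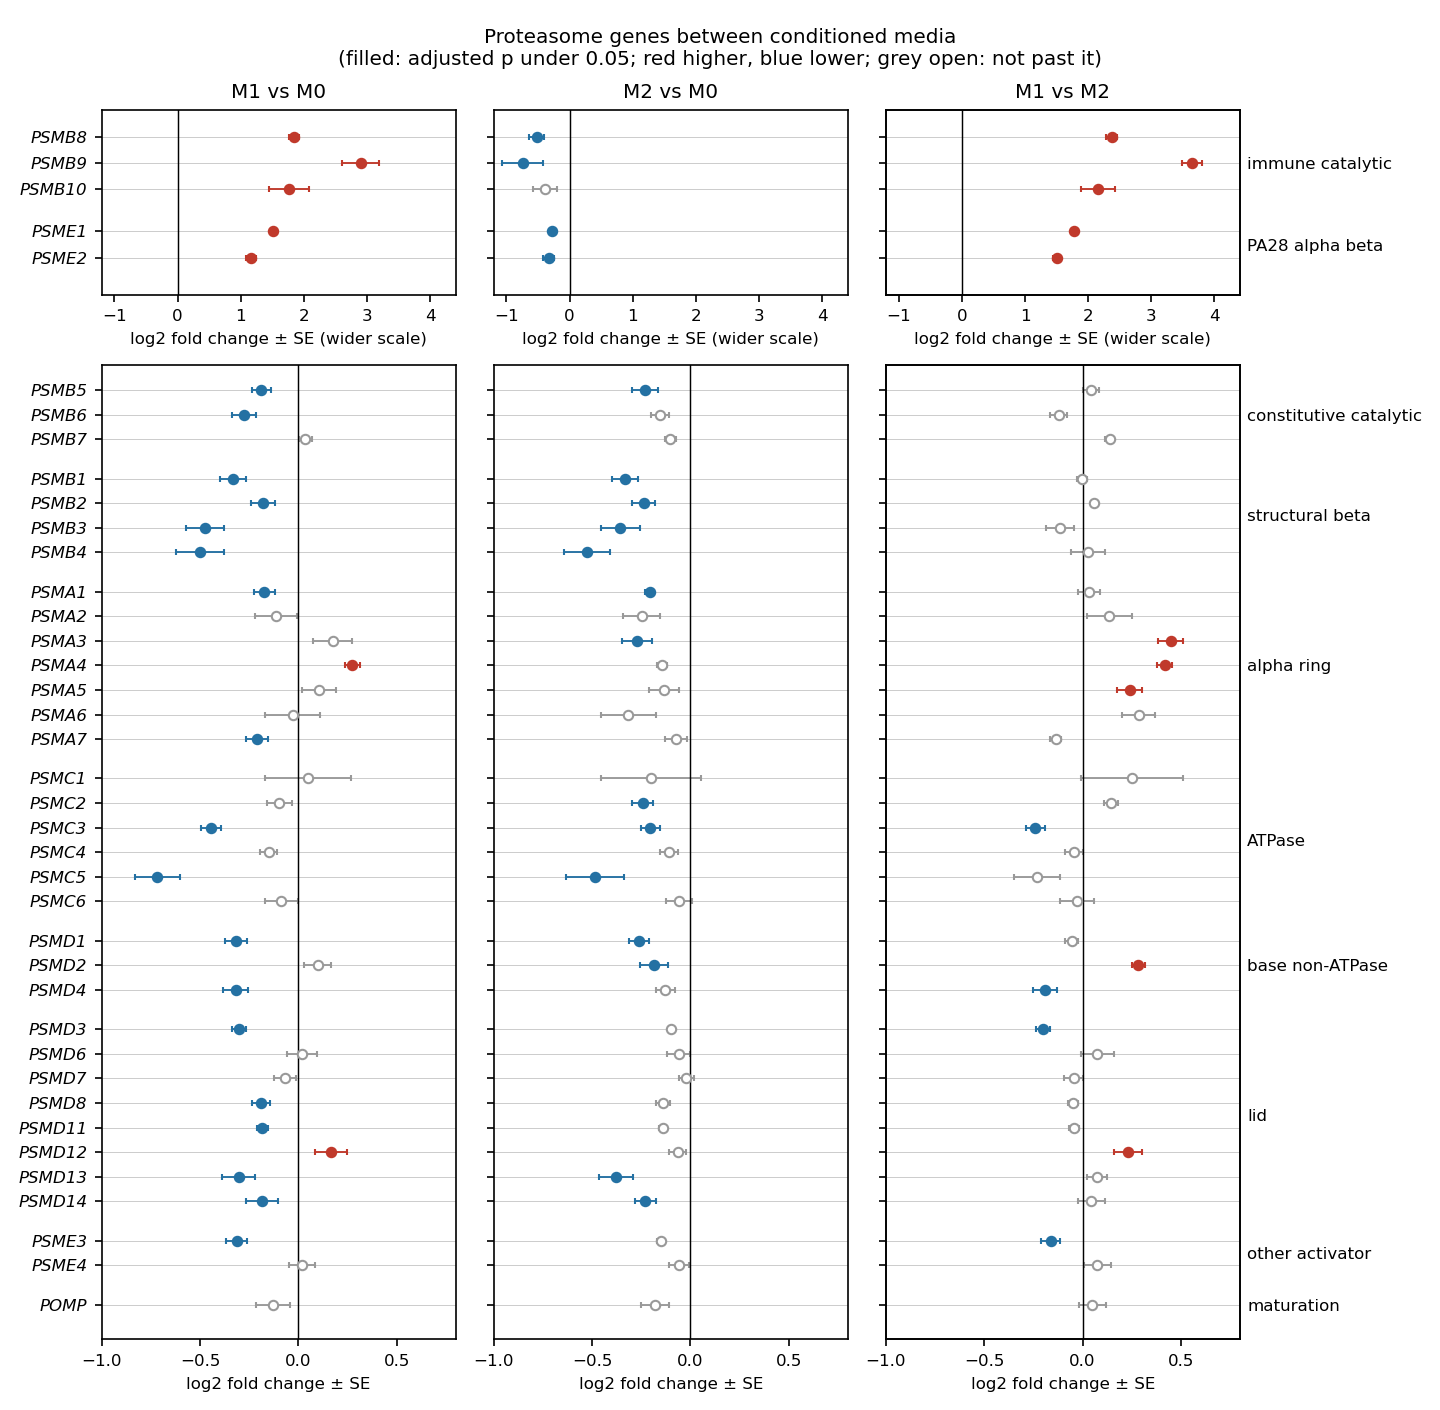
Log2 fold changes (horizontal axis) of all 39 genes, ordered by role, for M1 against M0, M2 against M0 and M1 against M2, with bars of 1 SE from 3 and 3 libraries. The upper panels hold the 5 immune genes on a wider scale. Filled red points are higher and filled blue points lower at an adjusted p under 0.05 (edgeR), and the 5 immune genes are the outlying points of both M1 comparisons.

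The constitutive catalytic genes had log2 fold changes between -0.43 and 0.30 over the 6 comparisons. PSMB5 encodes beta5, the chymotrypsin-like subunit that PSMB8 replaces. It measured 155.9, 155.6 and 155.5 CPM in M1, 155.6, 142.4 and 155.5 CPM in M2, 168.6, 174.6 and 189.0 CPM in M0, and 189.1, 204.3 and 216.3 CPM in Ctrl. The M1 and M2 libraries lay below M0, and M0 lay below Ctrl by a narrow margin. PSMB5 fell by 0.19 log2 units in M1 against M0 (standard error 0.05, adjusted p = 0.0254), a call that ended when M0 replicate 3 was left out (adjusted p = 0.167, edgeR). It also ended in 8 other alternatives, among them without M0 replicate 2, without any 1 of the M1 libraries, without M2 replicate 1 and without Ctrl replicate 2. Its fall by 0.23 in M2 against M0 (adjusted p = 0.0195) ended without M0 replicate 3 (adjusted p = 0.113) and without M2 replicate 2 (adjusted p = 0.103, edgeR). Against Ctrl, PSMB5 fell by 0.38 in M1 (adjusted p = 8.09e-05), 0.43 in M2 (adjusted p = 3.42e-05) and 0.20 in M0 (adjusted p = 0.0172, edgeR). The M0 call ended without Ctrl replicate 3 (adjusted p = 0.0605) and without M0 replicate 1 (adjusted p = 0.0612, edgeR).

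PSMB6 encodes beta1, the caspase-like subunit that PSMB9 replaces. Its levels were 157.1, 141.6 and 151.1 CPM in M1, 164.6, 163.6 and 161.2 CPM in M2, 170.9, 188.5 and 185.8 CPM in M0, and 143.8, 163.1 and 177.3 CPM in Ctrl. M1 was below M0 in every library, and Ctrl overlapped both M1 and M0. The fall in M1 against M0 was 0.28 log2 units (standard error 0.06, adjusted p = 0.00541, edgeR). Against Ctrl, PSMB6 had log2 fold changes of -0.11 in M1 (adjusted p = 0.214), 0.02 in M2 (adjusted p = 0.855) and 0.17 in M0 (adjusted p = 0.0545, edgeR). It was called lower in M1 than in Ctrl without Ctrl replicate 1 (log2 fold change -0.19, adjusted p = 0.0211) and higher in M0 than in Ctrl without Ctrl replicate 3 (log2 fold change 0.23, adjusted p = 0.0172, edgeR).

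PSMB7 encodes beta2, the trypsin-like subunit that PSMB10 replaces. It measured 281.2, 296.1 and 289.3 CPM in M1, 260.8, 264.9 and 261.5 CPM in M2, 271.9, 289.4 and 283.8 CPM in M0, and 215.2, 241.2 and 246.8 CPM in Ctrl. M1 and M0 overlapped, and Ctrl was the lowest group. The log2 fold change in M1 against M0 was 0.04 (standard error 0.03, adjusted p = 0.64, edgeR), and PSMB7 was higher in M1 than in Ctrl by 0.30 (standard error 0.06, adjusted p = 3.53e-04, edgeR).

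Levels of the paired catalytic genes were compared per kilobase of merged annotated exon. PSMB8 reached a ratio to PSMB5 of 0.129, 0.121 and 0.123 in the M1 libraries, 0.0269, 0.0241 and 0.0229 in M2, 0.0299, 0.0294 and 0.0315 in M0, and 0.0285, 0.0248 and 0.0268 in Ctrl. The M1 ratios stood apart, and those of M2 and Ctrl overlapped. By these counts constitutive mRNA thus exceeded immune mRNA at this position in all 12 libraries. How reads in the exon overlaps of PSMB8 were counted is not known, so the level of the ratio is uncertain.

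The mean ratio of PSMB9 to PSMB6 was 0.102 ± 0.006 in M1, 0.00736 ± 0.00134 in M2, 0.0111 ± 0.0038 in M0 and 0.00918 ± 0.00103 in Ctrl (SD, n = 3 each). For PSMB10 to PSMB7 it was 0.0291 ± 0.0087 in M1, 0.00716 ± 0.00066 in M2, 0.00880 ± 0.00152 in M0 and 0.00725 ± 0.00037 in Ctrl. The ratio in M1 was higher than in M0 by 4.11-fold for PSMB8/PSMB5, 9.54-fold for PSMB9/PSMB6 and 3.2-fold for PSMB10/PSMB7, on log2 means with SE of 0.04, 0.30 and 0.32. An exact permutation test of any difference among the M1, M2 and M0 log2 ratios, on an F statistic over 1680 assignments of the 9 samples, gave p = 0.00357 for PSMB8/PSMB5, which is the smallest it allows, and p = 0.00714 for each of the other pairs. Adjusted over the 3 pairs, the exact permutation p was 0.00714 for each. With the length of the principal transcript in place of merged exons, chosen after seeing the data, the M1 ratios were 0.243, 0.235 and 0.0243 for the 3 pairs in this order. The level of the PSMB8 and PSMB9 ratios thus depends on the length used. The fold difference between media cannot change with it, since a gene has the same length in all libraries.

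**Figure D3:**
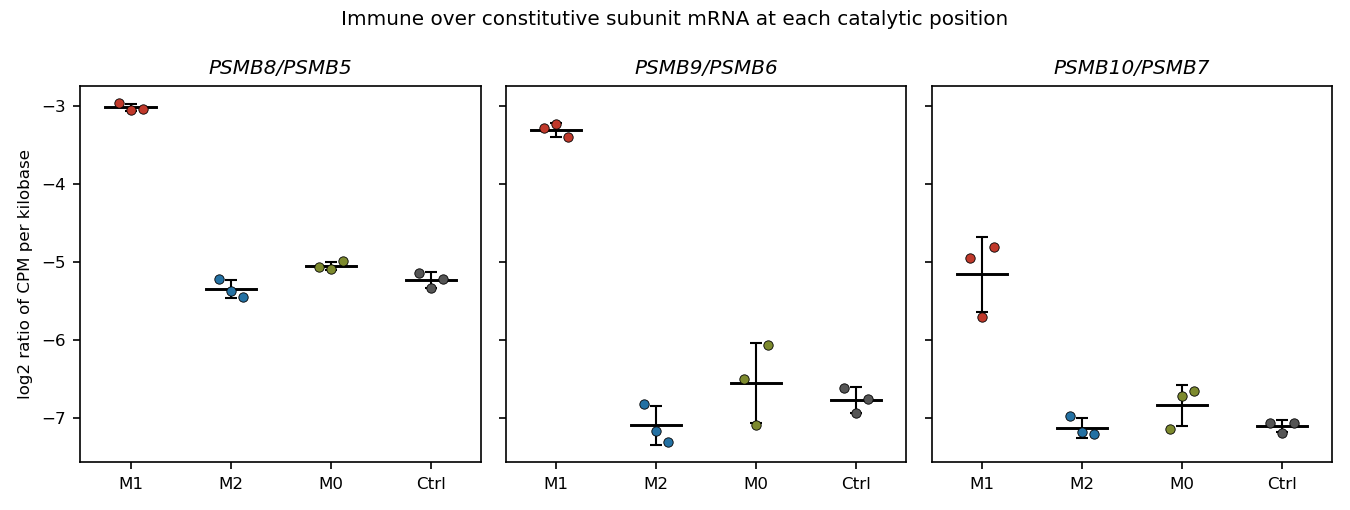
Log2 ratio of the immune to the constitutive gene at each catalytic position, PSMB8/PSMB5, PSMB9/PSMB6 and PSMB10/PSMB7, computed per library from CPM per kilobase, for M1, M2, M0 and Ctrl. Points are libraries and bars the mean ± SD of 3. The M1 libraries lie above all others in each panel, with M1 replicate 2 the lowest of the M1 points for PSMB10/PSMB7, and all values are below 0.

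Across the set, mean levels in Ctrl ran from 0.950 to 3.07 CPM per kilobase in the immune catalytic genes, from 13.5 to 20.3 in PSME2 and PSME1, and from 111.4 to 131.2 in the constitutive catalytic genes. The other 31 genes had a median of 38.9 CPM per kilobase in Ctrl, with PSMA7 the highest at 208 and PSMC1 the lowest at 0.581. In M1 the immune catalytic genes reached 4.68 (PSMB10) to 11 (PSMB8) CPM per kilobase, and PSME1 reached 90.0, against 88.2 for PSMB5 and 161.6 for PSMB7. PSMC1 has 13 annotated pseudogenes whose reads came to 24.9% of its own, and it shares 4671 exon bases with NRDE2 on the opposite strand, so its low counts are uncertain. PSMA6 (1.03 CPM per kilobase in Ctrl) and PSMA2 (2.59) were low as well. PSMA6 shares 919 exon bases with AL121594.1 on the same strand. PSMA2 shares 781 with AC010132.3 on the same strand and 1043 with AC010132.2 on the opposite one, so the counts of both are uncertain. The levels of PSMB8, PSMB9 and PSMB10 beside those of other genes are uncertain too, since they share exon bases with other genes as given above.

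The structural beta genes complete the inner rings without carrying a proteolytic site. In M1 against M0, 4 of 4 were lower, where 26.7% of all genes were. In M2 against M0, 4 of 4 were lower as well, where 12.7% of all genes were, and 0 of them without M0 replicate 3 and M2 replicate 2 together. PSMB4 had 128.2, 111.0 and 127.0 CPM in M1, 129.1, 114.7 and 116.0 CPM in M2, 158.9, 161.0 and 198.3 CPM in M0, and 190.1, 212.2 and 230.9 CPM in Ctrl. M1 and M2 overlapped and lay below all M0 and Ctrl libraries, and M0 replicate 3 reached into the Ctrl range. PSMB4 fell by 0.50 log2 units in M1 against M0 (standard error 0.12, adjusted p = 4.50e-04) and PSMB3 by 0.47 (standard error 0.10, adjusted p = 0.00162, edgeR). The M1 call of PSMB2, a fall by 0.18 log2 units (adjusted p = 0.0279), ended in 9 alternatives, among them without M0 replicate 3 (adjusted p = 0.198, edgeR).

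The alpha ring genes, which form the gated outer rings, were divided. PSMA4 was higher in M1 than in M0, with 129.0, 140.1 and 133.6 CPM in M1 and 110.4, 108.7 and 113.7 CPM in M0 (log2 fold change 0.27 ± 0.04 SE, adjusted p = 0.00198, edgeR). PSMA1 and PSMA7 were lower in M1, and PSMA2, PSMA3, PSMA5 and PSMA6 did not pass the test, with log2 fold changes of -0.11 to 0.18. All M1 libraries of PSMA4 were above all M0 libraries. The call of PSMA1 (log2 fold change -0.17, adjusted p = 0.0385) ended in 15 of 19 alternatives, among them the DESeq2 test (adjusted p = 0.0553), no filter on low counts (adjusted p = 0.207) and 10 of the 12 fits with 1 library left out (edgeR). That of PSMA7 (log2 fold change -0.21, adjusted p = 0.0183) ended in 5, among them without M0 replicate 2 (adjusted p = 0.12) and without M0 replicate 3 (adjusted p = 0.0694, edgeR). PSMA3, with a log2 fold change of 0.18 (adjusted p = 0.0661), was called higher in 6 alternatives, among them without M0 replicate 3 (0.27, adjusted p = 0.00743) and without Ctrl replicate 1 (0.19, adjusted p = 0.0301, edgeR).

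Among the ATPase genes, which unfold substrates and feed them into the core, PSMC5 and PSMC3 fell in M1 against M0 and the other 4 did not pass the test. PSMC5 had 71.0, 62.4 and 66.2 CPM in M1, 88.0, 68.4 and 78.1 CPM in M2, 105.2, 98.2 and 124.8 CPM in M0, and 135.4, 159.5 and 158.8 CPM in Ctrl. The M1 and M2 libraries overlapped, M0 was above both, and Ctrl was the highest. PSMC5 fell by 0.72 log2 units in M1 against M0 (standard error 0.12, adjusted p = 4.14e-05), the deepest fall of the set there, and PSMC3 by 0.44 (standard error 0.05, adjusted p = 2.35e-05, edgeR). PSMC5 shares 874 exon bases with FTSJ3 on the opposite strand.

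In the base, PSMD1, a large scaffold subunit, fell by 0.32 log2 units in M1 against M0 and PSMD4, a ubiquitin receptor, by the same amount, while PSMD2 had a log2 fold change of 0.10 (adjusted p = 0.197, edgeR). Of the 8 lid genes, PSMD3, PSMD8, PSMD11, PSMD13 and PSMD14, the last of which encodes the deubiquitinase that removes ubiquitin chains, fell by 0.18 to 0.30, while PSMD6 had a log2 fold change of 0.02 and PSMD7 one of -0.07. PSMD12 moved the other way, with 75.3, 88.4 and 79.3 CPM in M1 and 71.6, 68.9 and 75.9 CPM in M0 (log2 fold change 0.17 ± 0.08 SE, adjusted p = 0.0462, edgeR). The M1 and M0 values of PSMD12 overlapped, and its call ended in 7 of the alternatives, among them without M1 replicate 2 (adjusted p = 0.142, edgeR) and without M0 replicate 1 or 2 or M2 replicate 2 or 3. PSME3, which encodes the nuclear activator PA28 gamma, fell by 0.31 (standard error 0.05, adjusted p = 2.63e-04), while PSME4, which encodes PA200, had 0.02 (adjusted p = 0.843) and POMP, the chaperone of core maturation, -0.13 (adjusted p = 0.172, edgeR). Without M0 replicate 3, and likewise without M1 replicate 1, 11 members in place of 18 were lower in M1 than in M0. Over all genes, 7354 were called either way there, 6252 without M0 replicate 3 and 6493 without M1 replicate 1. Of the 18, the same 11 kept their call in each of the 19 alternatives. PSMA1, PSMA7, PSMB2, PSMB5, PSMD8, PSMD11 and PSMD14 did not, and each lost it without M0 replicate 3 and again without M1 replicate 1. The call of PSMD8 (log2 fold change -0.19) ended in 16 of the alternatives, that of PSMD14 in 7 and that of PSMD11 in 4.

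Any difference among M1, M2 and M0 was called for 28 of the 39 genes, against 56.6% of all genes tested. These were 5 of 5 immune genes, 2 of 3 constitutive catalytic genes and 21 of the other 31. The adjusted p ranged over the immune genes from 3.36e-11 (PSMB8) to 7.51e-07 (PSMB10), while PSMB5 had 0.0154, PSMB6 0.0150 and PSMB7 0.133 (edgeR). Summed over the 5 immune genes, levels were 377.5, 368.3 and 360.7 CPM in M1, 111.5, 102.6 and 100.9 CPM in M2, 125.0, 130.0 and 141.6 CPM in M0, and 91.3, 98.3 and 106.2 CPM in Ctrl. Summed over the other 34, they were 5570, 5735 and 5599 CPM in M1, 5589, 5481 and 5458 CPM in M2, 6013, 6173 and 6586 CPM in M0, and 6434, 6824 and 6918 CPM in Ctrl. The immune sum was thus 2.79 times as high in M1 as in M0, and the sum of the others fell by 9.94%.

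**Figure D4:**
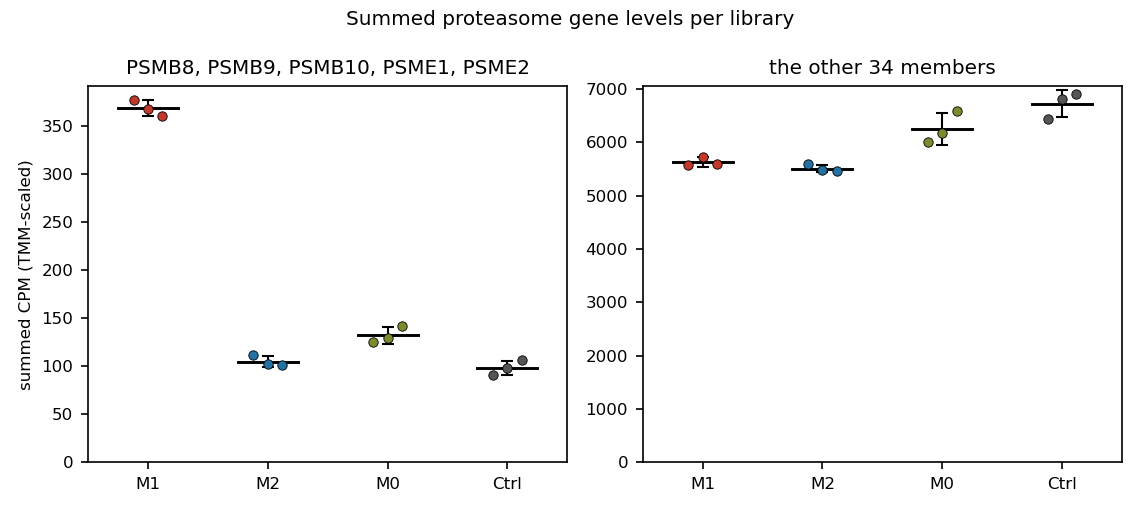
Summed TMM-scaled CPM per library of the 5 immune genes PSMB8, PSMB9, PSMB10, PSME1 and PSME2 and of the other 34 members, for M1, M2, M0 and Ctrl, on axes that start at 0. Points are libraries and bars the mean ± SD of 3. The immune sum averages 368.8 CPM in M1 and 98.6 to 132.2 CPM in the other groups, while the other 34 members average 5635 CPM in M1, 5509 in M2, 6257 in M0 and 6725 in Ctrl.

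Comparisons with Ctrl include conditioning by macrophages as such. In M1 against Ctrl, 8 of the 39 genes were higher and 21 were lower, where 35.2% of all genes were higher and 35.0% lower. In M2 against Ctrl, 4 were higher and 23 lower, where 34.1% and 32.4% of all genes were. In M0 against Ctrl, 7 were higher and 17 lower, where 31.1% and 30.6% were (edgeR). The median log2 fold change of the 39 genes was -0.28 in M1, -0.30 in M2 and -0.10 in M0, against 0.00, 0.02 and 0.00 over all genes. All 3 comparisons use the same Ctrl libraries.

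The 5 immune genes were all higher in M1 than in Ctrl, PSMB9 by 10.3-fold (adjusted p = 1.87e-10), PSMB10 by 4.95-fold (adjusted p = 8.41e-08), PSME1 by 4.43-fold (adjusted p = 2.48e-12), PSMB8 by 3.57-fold (adjusted p = 1.57e-10) and PSME2 by 2.79-fold (adjusted p = 9.51e-11, edgeR). Unpolarized M0 medium raised the PA28 genes, PSME1 by 1.56-fold (adjusted p = 4.79e-06) and PSME2 by 1.24-fold (adjusted p = 0.00176, edgeR). For the immune catalytic genes in M0 against Ctrl the log2 fold changes were -0.01 for PSMB8 (standard error 0.09, adjusted p = 0.938), 0.47 for PSMB9 (standard error 0.30, adjusted p = 0.0522) and 0.55 for PSMB10 (standard error 0.18, adjusted p = 0.053, edgeR). PSMB9 was past the threshold when M0 replicate 2 was left out (adjusted p = 0.00724) and PSMB10 when M0 replicate 1 (adjusted p = 0.0303), M1 replicate 2 (adjusted p = 0.0126) or M1 replicate 3 (adjusted p = 0.0407) was (edgeR). Both were also past it with no filter on low counts (adjusted p = 0.0133 for PSMB9 and 0.0246 for PSMB10), and PSMB10 in the fit of the 2 groups alone (adjusted p = 0.0329) and with the replicate block (adjusted p = 0.0489, edgeR). M2 medium lowered PSMB8 against Ctrl by 0.53 log2 units (standard error 0.10, adjusted p = 2.89e-04) and raised PSME1 by 0.37 (standard error 0.11, adjusted p = 7.68e-04, edgeR).

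Outside the immune genes, PSMD12 and PSMC5 were among the 3 greatest falls in each conditioned medium against Ctrl. PSMD12, which encodes a structural subunit of the lid, stood at 75.3, 88.4 and 79.3 CPM in M1, 67.4, 69.9 and 69.7 CPM in M2, 71.6, 68.9 and 75.9 CPM in M0, and 123.4, 127.5 and 122.7 CPM in Ctrl. All 9 conditioned libraries were far below the Ctrl libraries. PSMD12 fell by 0.62 log2 units in M1 (adjusted p = 4.86e-07), 0.85 in M2 (adjusted p = 2.11e-08) and 0.79 in M0 (adjusted p = 6.76e-08, edgeR). PSMC5 fell by 1.18 in M1 (SE 0.09), 0.95 in M2 (SE 0.13) and 0.47 in M0 (SE 0.13), and PSMB4 by 0.79 in M1, 0.81 in M2 and 0.29 in M0. The M0 call of PSMB4 ended without M0 replicate 1 (adjusted p = 0.0716), M0 replicate 2 (adjusted p = 0.0548) or Ctrl replicate 3 (adjusted p = 0.0698, edgeR).

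PSME4 had 131.2, 150.8 and 138.1 CPM in M1, 126.2, 134.3 and 138.0 CPM in M2, 140.3, 131.6 and 142.4 CPM in M0, and 228.1, 212.9 and 195.3 CPM in Ctrl. The conditioned groups overlapped one another and lay below Ctrl, by 0.60 log2 units in M1, 0.68 in M2 and 0.62 in M0, all past the threshold. POMP likewise fell in all 3 media, by 0.41 in M1, 0.46 in M2 and 0.28 in M0. The lid genes PSMD7 and PSMD8 were higher than in Ctrl in each medium. PSMD8 had 319.2, 335.7 and 337.1 CPM in M1, 341.8, 342.5 and 342.9 CPM in M2, 362.7, 395.8 and 372.6 CPM in M0, and 229.5, 281.0 and 290.3 CPM in Ctrl, with Ctrl replicate 1 the lowest. PSMD8 was higher by 0.31 log2 units in M1, 0.36 in M2 and 0.50 in M0, and PSMD7 by 0.33 in M1, 0.37 in M2 and 0.39 in M0. In M0 against Ctrl, PSMD4 (0.27) and PSMA1 (0.26) were higher as well. PSMB7 was higher than in Ctrl in all 3 media, but its call in M2 (log2 fold change 0.16, adjusted p = 0.0264) ended without Ctrl replicate 1 (adjusted p = 0.139), without any 1 of the M2 libraries (adjusted p of 0.061 to 0.0699) and without M0 replicate 2 (adjusted p = 0.0528, edgeR).

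**Figure D5:**
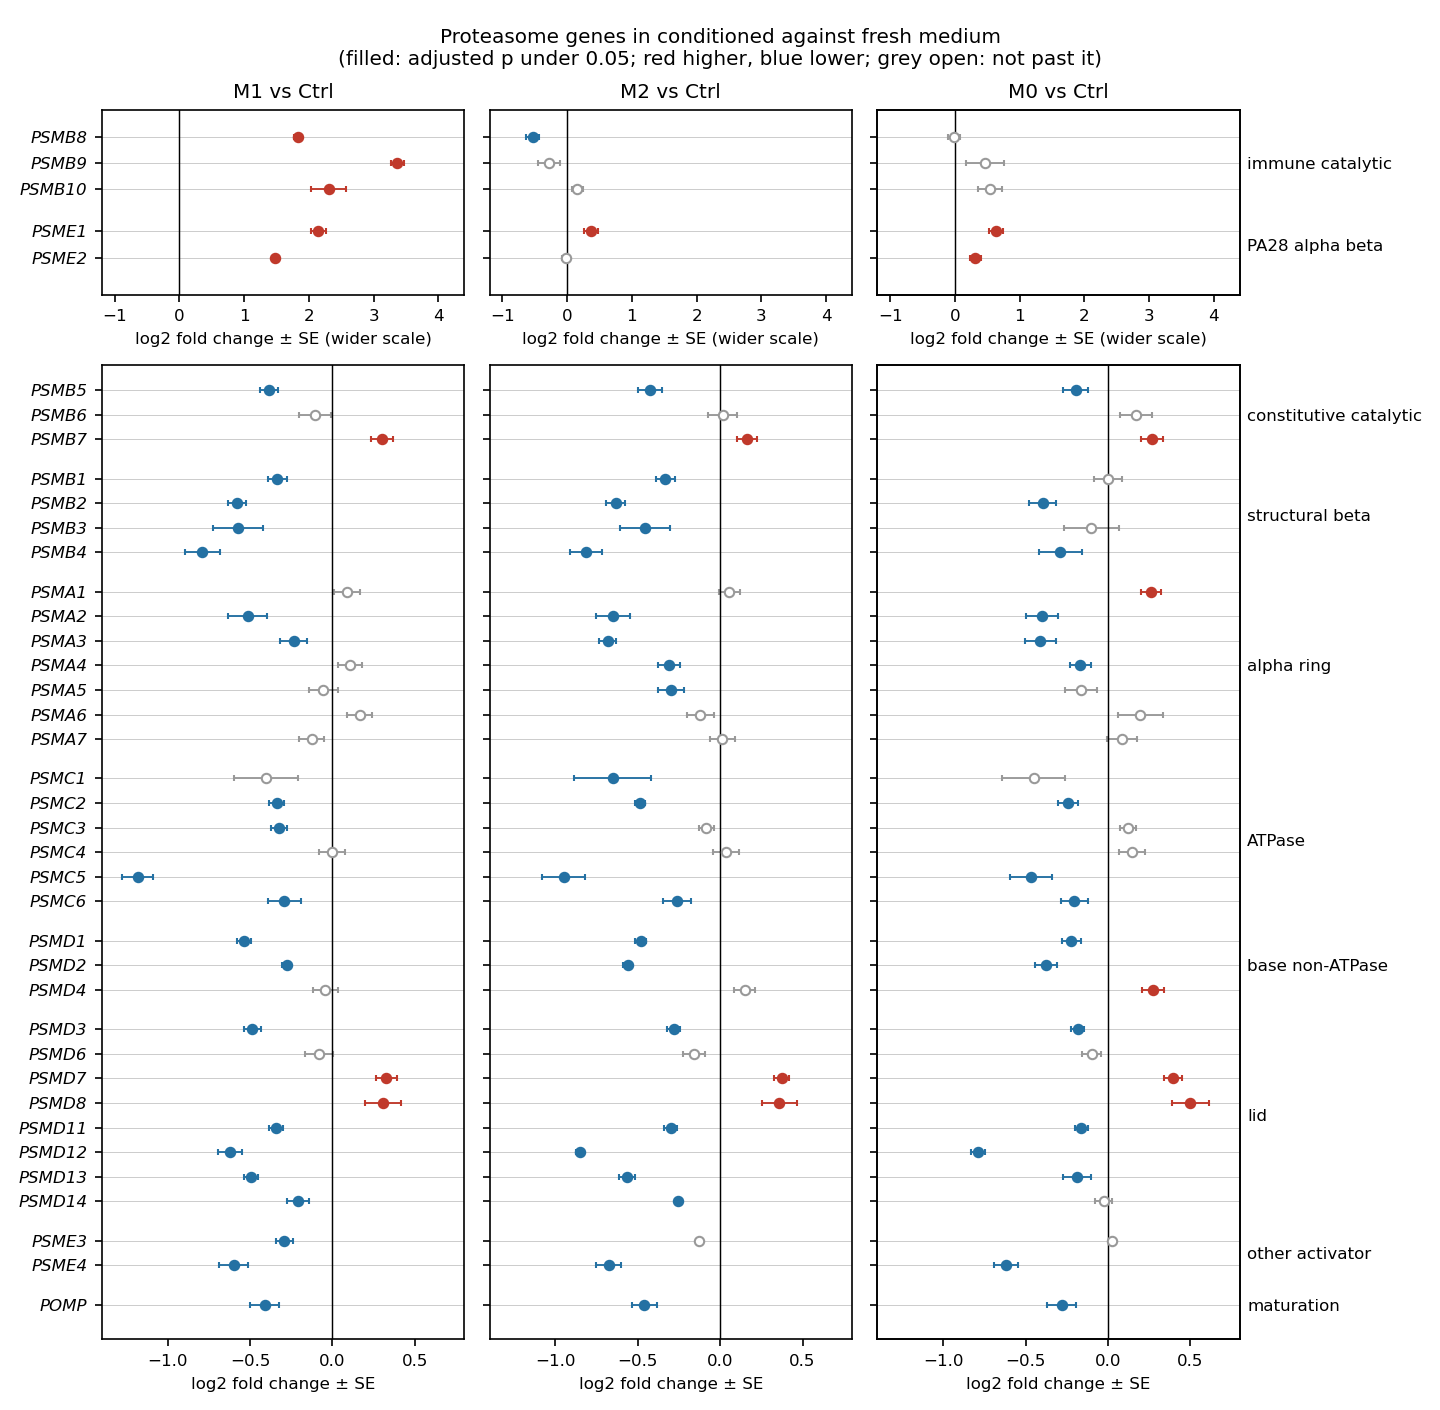
Log2 fold changes (horizontal axis) of all 39 genes, ordered by role, for M1, M2 and M0 medium each against Ctrl, with bars of 1 SE from 3 and 3 libraries. The upper panels hold the 5 immune genes on a wider scale. Filled red points are higher and filled blue points lower at an adjusted p under 0.05 (edgeR), and PSMC5 and PSMD12 lie on the left of each lower panel while PSMD7 and PSMD8 lie on the right.

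Other genes of the pathway were read from a list of 43, of which 41 passed the filter. The core genes PSMA8 and PSMB11, known from testis and thymus, did not. In M1 against M0, 11 of the 41 were higher and 12 lower, with a median log2 fold change of -0.07. These are shares of 26.8% and 29.3%, beside 25.5% and 26.7% of all genes. Among the listed neighbours and regulators of the immune subunits, TAP1, TAP2, NLRC5 and IRF1 rose in M1. TAP1, the peptide transporter gene beside PSMB9, averaged 172.2 ± 7.9 CPM in M1, 21.1 ± 1.5 in M2, 18.7 ± 2.3 in M0 and 16.3 ± 2.4 in Ctrl (SD, n = 3 each), a log2 fold change of 3.21 against M0 (edgeR). NLRC5, the activator of MHC class I genes, had a log2 fold change of 2.23 and IRF1 one of 2.14.

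M2 medium raised IRF1 as well, by 0.57 log2 units against M0 (adjusted p = 0.00137), and NLRC5 by 0.54 (adjusted p = 0.00459, edgeR), whereas the immune subunits were not higher in M2. TAP1 had a log2 fold change of 0.18 in M2 against M0 (adjusted p = 0.229, edgeR) and did not pass the test. Without M0 replicate 3 and M2 replicate 2 together, IRF1 kept its call (log2 fold change 0.49, adjusted p = 0.0356, edgeR). NLRC5 (0.47, adjusted p = 0.0992) and TAP2 (-0.18, adjusted p = 0.336, edgeR) did not.

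NFE2L1 encodes the transcription factor that raises proteasome genes when proteasome activity is low, and DDI2 the protease that activates it. NFE2L1 averaged 735 ± 52 CPM in M1, 539.3 ± 14.2 in M2, 495.9 ± 3.5 in M0 and 299.3 ± 28.0 in Ctrl, a log2 fold change of 0.57 in M1 against M0 (adjusted p = 1.07e-05, edgeR). DDI2 had a log2 fold change of 0.64 there. ADRM1, the gene of a proteasomal ubiquitin receptor, fell by 0.49 log2 units in M1 against M0 (adjusted p = 0.00151, edgeR).

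In M0 against Ctrl, 16 of the 41 other pathway genes (39%) were higher and 11 (26.8%) lower, where 31.1% and 30.6% of all genes were. The 3 largest rises were those of ZFAND2A, an arsenite-inducible proteasome partner, with a log2 fold change of 1.94, of NFE2L2, the antioxidant-response factor, with 1.46, and of AKIRIN2, which carries proteasomes into the nucleus, with 1.13. ZFAND2A averaged 34.7 ± 3.8 CPM in M1, 32.7 ± 1.5 in M2, 28.8 ± 4.5 in M0 and 7.47 ± 0.45 in Ctrl. NLRC5 (-0.96), the unfoldase gene VCP (-0.75) and the ubiquitin-activating enzyme gene UBA6 (-0.55) fell the most in M0. Each of these 6 genes passed the test at an adjusted p under 0.05 (edgeR).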

How the data were processed

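Polyadenylated RNA was measured as stranded single reads of 50 nt in 12 MV3 samples. Each library was sequenced in more than 1 run, and the runs are not separated in the files. Per the submitters' processing notes, FastQC 0.11.7, Trimmomatic 0.36, Bowtie2 2.2.3, STAR 2.5.4b and DESeq2 1.20.0 were used with hg38. Neither the counter nor its strand setting is given in the sources used here. Raw counts per gene were deposited by the authors. The authors also deposited variance-stabilized log2 values, used here only for symbols and in 1 alternative.

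Tests used edgeR 4.0.16 under R 4.3.3 on the deposited counts (quasi-likelihood, all 12 samples, TMM, filterByExpr with minimum count 10 and minimum total 15, Benjamini-Hochberg adjustment over 14088 genes at 0.05), which was checked on simulated data. The SE of a fold change is that of the difference between the mean log2 CPM of 3 and 3 libraries. Lengths and coordinates came from GENCODE 29, which matched 37 of 39 member identifiers with their version. The members and lists were chosen with earlier results of these data known. All members are accounted for by role; immune and constitutive catalytic genes are given by library, and the others by the 3 largest rises and falls, or where they moved against their role. Some listed genes that are no members are not reported here. Alternatives were DESeq2 1.42.0 and its size factors, limma 3.58.1 on the log2 values, no filter, 2-group fits, a replicate block, each sample left out, M0 replicate 3 and M2 replicate 2 left out together, and principal transcript length.

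Totals were 21788397 to 42921242 counts, so 3 counts correspond to 0.0699 to 0.138 CPM. Replicates differed by more than sampling noise (chi-square over its degrees of freedom was 3.01 to 25.6). Same-numbered replicates deviated together at most weakly (r of -0.0775 to 0.154).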

Additional observations from a re-analysis of the deposited data

How the results depend on the processing

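Over 4446 recomputed log2 fold changes of the 39 genes, 4185 kept their side of the threshold, 192 lost the call and 69 gained it. The sign changed in 74, all of them called in neither fit and each with a log2 fold change of at most 0.0852 in size in the fit reported. The counts that moved by over 1.5 times were all of lower genes. In M1 against M0, 18 lower members became 11 without M0 replicate 3 and M2 replicate 2 together, and 11 to 19 with 1 library left out. In M2 against M0, 18 became 0 with both libraries out, where 520 genes in all were still called, and 7 to 22 with 1 left out. In M1 against M2, 4 became 2 with DESeq2 size factors, 1 with no filter, 2 with both libraries out, and 0 to 4 with 1 left out. Fits with libraries left out also hold fewer libraries, and the causes of these moves were not tested. The 2-group fits gave no value for the joint test. With the replicate block, lower members numbered 18 in M1 against M0, 18 in M2 against M0, 3 in M1 against M2, 18 in M0 against Ctrl, 21 in M1 against Ctrl and 24 in M2 against Ctrl, higher members 7, 0, 10, 8, 8 and 4 in the same order, and 28 differed among the 3 conditioned media. Same-numbered samples deviated together at most weakly, which does not settle whether the numbers pair samples. The block changed 4 of 234 member calls and moved no count by over 1.5 times. With principal transcript lengths the mean log2 ratio moved beyond its SD for PSMB8/PSMB5 to -2.04 in M1, -4.38 in M2, -4.08 in M0 and -4.26 in Ctrl, for PSMB9/PSMB6 to -2.09 in M1, -5.89 in M2, -5.35 in M0 and -5.56 in Ctrl, and for PSMB10/PSMB7 to -7.39 in M2 and -7.37 in Ctrl, since the lengths differ between the genes. The shift of a pair is the same in every group, so PSMB10/PSMB7 passed the SD only in the groups where the SD was smaller.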
